A study of Mus musculus with 12 samples.

Results

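The genes described here belong to the TGF-beta, activin and Nodal branch of the TGF-beta superfamily. They were set by a list of names, without a threshold on their values. They are the ligand gene Nodal, its co-receptor gene Tdgf1, the inhibitor genes Lefty1 and Lefty2, the receptor genes Tgfbr1 and Acvr2b, and the SMAD genes Smad2, Smad3, Smad4 and Smad7. All 10 were found in the gene lists of the series, which hold 35652 genes for the cultured and fetal libraries and 34896 genes for the postnatal libraries.

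The series used SC3-seq, which counts RNA by reads near the 3' end of each transcript. There were 12 mouse libraries, which form 6 groups of 2. The cultured libraries were 2 Stag3 knockout lines, KO1 and KO2, and wild type (WT), where Stag3 encodes a cohesin subunit of the germline. They were germline stem cells (GSCs), the cultured counterpart of spermatogonial stem cells, and all of them, WT included, were of the line Acrosin-EGFP; beta-Actin-EGFP (AAG). Both knockout lines were compared with the same WT group, so the knockout cannot be told apart from other differences between these lines and WT. The in vivo libraries were testis germ cells of genotype Vasa-RFPTg/0 at 3 ages, E16 and E17 (embryonic days 16 and 17) and P7 (postnatal day 7). Germ cells of females were not analysed here. The labels do not say whether the libraries of a group came from separate cultures or animals, so each p-value measures only the spread between these libraries. The P7 libraries alone have the list of 34896 genes and hold no mitochondrial counts. In comparisons with P7, age or culture therefore cannot be told apart from this difference between the tables.

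In this pathway a ligand dimer brings together type II receptors, such as the product of Acvr2b, and type I receptors, such as the product of Tgfbr1. The type I receptor phosphorylates SMAD2 and SMAD3, which join SMAD4 and act on genes in the nucleus, and SMAD7 is an inhibitor that the pathway itself induces. Nodal also needs the co-receptor encoded by Tdgf1 and is held back by LEFTY proteins, and in the fetal mouse testis Nodal signalling is known from the time when germ cells take the male path.

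Smad3 and Tdgf1 are the members with the widest range of group means on the log2(RPM + 1) scale, so the 250 bases before their annotated starts are shown, from RefSeq on build GRCm38.p6, 5' to 3' on the strand of the gene. Capitals mark matches, on either strand, to CAGAC (the SMAD box), GGGCGG (the GC box), TATAAA (the TATA box) or AATNNACA (a loose form of the motif of FOXH1, a partner of SMAD2 and SMAD3). None of the matches overlap in these windows.
Smad3: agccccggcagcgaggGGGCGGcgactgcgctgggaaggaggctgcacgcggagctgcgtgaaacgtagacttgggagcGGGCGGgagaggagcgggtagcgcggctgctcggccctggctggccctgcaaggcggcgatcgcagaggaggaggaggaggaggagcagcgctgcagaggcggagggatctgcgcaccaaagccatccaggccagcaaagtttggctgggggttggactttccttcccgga
Tdgf1: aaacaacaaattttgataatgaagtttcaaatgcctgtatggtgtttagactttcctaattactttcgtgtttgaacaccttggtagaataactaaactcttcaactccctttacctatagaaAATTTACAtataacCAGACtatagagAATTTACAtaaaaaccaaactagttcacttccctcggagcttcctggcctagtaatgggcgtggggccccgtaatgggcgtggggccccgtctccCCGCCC
The Smad3 window lies on the minus strand at chr9:63757995-63758244 and the Tdgf1 window on the minus strand at chr9:110946159-110946408. The Smad3 window had a GC content of 69.2% and held 2 GC boxes and no match to the other 3 motifs. The Tdgf1 window had a GC content of 42%, with 1 SMAD box, 1 GC box and 2 FOXH1 motifs. Among all 32851 promoter windows of the same length, 42.2% held a SMAD box, 32.7% a GC box, 12.4% a TATA box and 10.9% the loose FOXH1 motif. These are matches of letters, and binding was not measured. Of the 10 members, 5 were found in the promoter table.

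On the same build Smad3 lies at chr9:63646766-63757994 and Tdgf1 at chr9:110939608-110946158, both on the minus strand of chromosome 9, which also carries Acvr2b at chr9:119401583-119442148. Nodal lies at chr10:61417972-61425338 and Tgfbr1 at chr4:47353222-47414926. Smad2, Smad4 and Smad7 are all on chromosome 18. Lefty1 and Lefty2 are neighbours on chromosome 1, separated by 35914 bases, and their transcripts were 91.5% identical over 1155 aligned bases. The last 300 bases of the 2 transcripts, from which 3' reads come, shared no identical run longer than 8 bases. How the authors' counting treated reads that fit both genes is not given in the sources used here, so their separate counts are uncertain.

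Library totals were 1938644 to 4596607 counts, and a library with 0 counts of a gene allows a level of up to 0.748 to 1.73 reads per 1000000 (RPM), taking 3 counts as the limit and covering counting error only. Summed levels of 6 germ cell marker genes were 2794 to 3689 RPM in all libraries. In bulk RNA, fewer cells that express a gene and less of its RNA per cell cannot be told apart. The targeted gene was read at 299.5 ± 7.0 RPM in KO1, 145 ± 10.5 RPM in KO2 and 403 ± 25.2 RPM in WT (SD, n = 2 each), and a 3' read need not lie in the deleted part, so it does not check the labels.

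The Nodal ligand was close to the limit of detection in every group but P7. Nodal had 1 and 0 counts at E16, 2 and 3 counts at E17, and 11 and 11 counts at P7, or 3.62 and 3.40 RPM at P7 and 1.16 and 1.57 RPM at E17. In GSCs it had 1 and 0 counts in KO1, 0 and 1 in KO2, and 0 in both WT libraries. Both P7 libraries stood above every other library. With so few reads Nodal passed the count filter only in the fit of all libraries, where the sum of 22 counts at P7 against 0 in WT GSCs gave an adjusted p of 0.0019 in edgeR's quasi-likelihood test. The P7 mean was 4.49-fold the limit of 3 counts per library in WT GSCs, without the counting error at P7. DESeq2 gave no adjusted p for this gene. Nodal passed the filter only through the P7 libraries, where it was highest, so its difference was built into that choice.

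Tdgf1, which encodes the co-receptor Cripto that Nodal needs, was read in the fetal germ cells and hardly anywhere else. It had 33 and 41 counts at E16 (16.4 and 14.4 RPM), 19 and 26 counts at E17 (11 and 13.6 RPM), and 0 and 1 counts at P7. In GSCs it had 0 counts in both KO1 libraries, 3 and 1 in KO2, and 3 and 0 in WT. All 4 fetal libraries stood above all others, with no overlap. At P7 Tdgf1 fell by 5.72 ± 0.79 on the log2 scale relative to E17 (SE; edgeR adjusted p = 1.59e-05). Tdgf1 passed the count filter only through fetal libraries, where it was highest, so this difference was built into that choice. Because P7 held 1 count, the ratio of the counts is the safer value, and E17 was 77.6-fold above P7 with a 95% counting interval of 13.2 to 3131. The E17 level relative to E16 differed by -0.65 ± 0.42 in the fit and did not pass (edgeR adjusted p = 0.393). The fit has its own scaling, so its log2 values need not match ratios of RPM, least of all between E17 and E16. Smad2, for example, averaged 94.6 RPM at E17 and 77.7 RPM at E16, with a fitted log2 value of -0.04.

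The genes of the LEFTY proteins, secreted inhibitors that bind Nodal and its co-receptor, were read mainly in the fetal germ cells. Lefty1 had 6 and 15 counts at E16 (2.98 and 5.28 RPM), 3 and 4 counts at E17 (1.73 and 2.09 RPM) and 0 at P7. Lefty2 had 2 and 1 counts at E16 (0.994 and 0.352 RPM), 8 and 9 counts at E17 (4.62 and 4.71 RPM), and 2 and 1 counts at P7 (0.658 and 0.309 RPM). So the highest libraries of Lefty1 were at E16 and those of Lefty2 at E17, without overlap between these ages in either gene, but at these counts and with their uncertain assignment a difference between their courses was not tested.

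At P7 Lefty2 fell by 3.0 ± 0.93 on the log2 scale relative to E17 (SE; edgeR adjusted p = 0.0103). That rests on 3 counts at P7 against 17 at E17, a 9.77-fold ratio with a 95% counting interval of 2.83 to 52.0, and it was lost with DESeq2 (adjusted p = 0.0621) and without E17 replicate 1 (edgeR adjusted p = 0.122). Lefty2 passed the count filter only through fetal libraries, so its fall at P7 was built into that choice. Lefty2 at E17 differed from E16 by 2.47 ± 0.96 and did not pass (edgeR adjusted p = 0.14). Lefty1 was too low for the test. Its E17 mean of 1.91 RPM was 2.0-fold the limit of 3 counts per library at P7, without the counting error at E17, so this is not a firm bound. In the 6 GSC libraries Lefty1 had 1 count in all and Lefty2 had 0 to 2 counts per library.

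**Figure D1:**
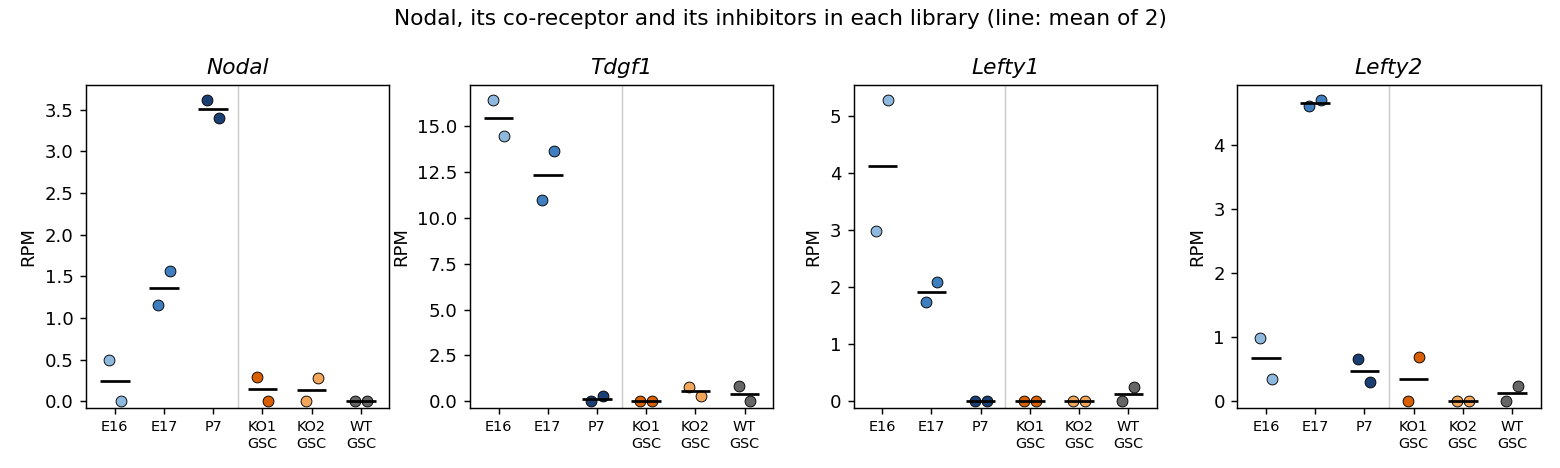
Levels of Nodal, Tdgf1, Lefty1 and Lefty2 in each library, in RPM on linear axes that differ between panels, with germ cells in vivo by age on the left of each panel and GSCs on the right. Points are libraries and lines the means of 2. Nodal stands highest at P7, where both libraries had 11 counts, and Tdgf1 is high only at E16 and E17, between 11 and 16.4 RPM.

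In the germ cells in vivo the 6 receptor and SMAD genes were all higher at P7 than at E17 relative to the other RNA of the library, a direction that turned when spike-in totals set the scale. Tgfbr1 encodes the type I receptor of TGF-beta. It had 25.8 and 19.7 RPM at E16, 27.7 and 32.4 RPM at E17, and 64.5 and 55.9 RPM at P7. Acvr2b, a type II receptor of activin and Nodal, had 18.9 and 15.1 RPM at E16, 22.5 and 31.4 RPM at E17, and 63.1 and 49.8 RPM at P7. For both receptors the P7 libraries stood above all fetal ones. Relative to E17, Tgfbr1 rose at P7 by 1.15 ± 0.22 (log2, SE; edgeR adjusted p = 0.000364) and Acvr2b by 1.21 ± 0.25 (edgeR adjusted p = 0.000525).

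Smad3, one of the 2 receptor-activated SMADs of this branch, showed the widest difference of the 6. It had 4.47 and 2.46 RPM at E16 (9 and 7 counts), 6.36 and 2.62 RPM at E17 (11 and 5 counts), and 41.8 and 39.6 RPM at P7 (127 and 128 counts). The fetal ages overlapped, and both P7 libraries were far above them. Smad3 was 10.1-fold higher at P7 than at E17, a log2 change of 3.34 ± 0.40 (SE; edgeR adjusted p = 4.37e-06). The E17 libraries differ, and without E17 replicate 1 the log2 change was 4.11.

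The other SMAD genes moved less. Smad2, the second receptor-activated SMAD, had 90.9 and 64.4 RPM at E16, 96.5 and 92.6 RPM at E17, and 151.6 and 155.8 RPM at P7. Smad4, the shared partner, had 73.5 and 54.9 RPM at E16, 67.0 and 76.4 RPM at E17, and 112.8 and 109.1 RPM at P7. Smad7, the inhibitory SMAD, had 13.4 and 4.22 RPM at E16, 9.82 and 9.42 RPM at E17, and 28 and 26.3 RPM at P7. In each gene both P7 libraries were above all 4 fetal ones. From the edgeR fit, Smad2 rose at P7 by 0.86 ± 0.16 relative to E17 (log2, SE; adjusted p = 0.000288), Smad4 by 0.78 ± 0.17 (adjusted p = 0.001) and Smad7 by 1.65 ± 0.41 (adjusted p = 0.0024).

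Of the 10 members, 8 passed the filter on low counts in the in vivo fit, and of these 6 were higher and 2 lower at P7 than at E17. Calls were common in this comparison: 67.9% of the 14776 genes tested passed, 30.2% higher and 37.8% lower. Tdgf1 and Lefty2 passed the filter only through fetal libraries, so their difference was built into that choice. The median log2 change was 1.00 over the 8 members and -0.13 over all genes. Between E17 and E16 none of the 8 passed, where 6.60% of all genes did (1.64% higher and 4.96% lower). Lefty2 was the one member below 0.05 before adjustment in edgeR, at an unadjusted p of 0.0205. DESeq2 also called none of them.

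The in vivo directions depend on the scale. With the ERCC spike-in totals, synthetic RNAs added to each library, as size factors, the median of all genes was -4.81 for P7 against E17 and 3.02 for E17 against E16, and all 8 members were then lower at P7 than at E17. Spike-in counts were 27550 and 48708 at E16, 3768 and 4979 at E17, and 188998 and 159198 at P7. That scale holds only if each library received the same spike-in amount for its input of cells or RNA, which was not tested. Relative to the median of all genes the values were nearly the same on both scales: Smad3 stood at 3.48 with the usual scaling and 3.46 with the spike-ins, Smad7 at 1.78 with both, and Tdgf1 at -5.59 and -5.31.

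Markers of other cells also differed between P7 and E17. Summed levels of undifferentiated spermatogonial markers were 1141 to 1256 RPM at P7 and 168 to 169 RPM at E17, and those of fetal male germ cells 244 to 280 RPM at P7 and 1970 to 2009 RPM at E17. Of 10 Sertoli markers 9 were matched, with 63.5 to 98.9 RPM at P7 and 147 to 149 RPM at E17, and Amh at 0 in all libraries. Peritubular myoid markers summed to 11.5 to 21.9 RPM at P7 and 105 to 116 RPM at E17, and Leydig markers to 3.71 to 9.21 RPM at P7 and 38.7 to 41.9 RPM at E17, with Insl3 at 0 at both ages and Cyp17a1 at 0 at P7. Fibroblast and feeder markers summed to 371 to 393 RPM at P7 and 549 to 566 RPM at E17. Endothelial markers summed to 37.1 to 37.8 RPM at P7 and 131 RPM in both E17 libraries. Macrophage markers summed to 0.987 to 1.85 RPM at P7 and 9.82 to 13.1 RPM at E17. Erythroid markers overlapped, at 11.8 to 82.5 RPM at P7 and 56.6 to 60.7 RPM at E17. The part of any of these cells in the changes of the members was not tested.

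**Figure D2:**
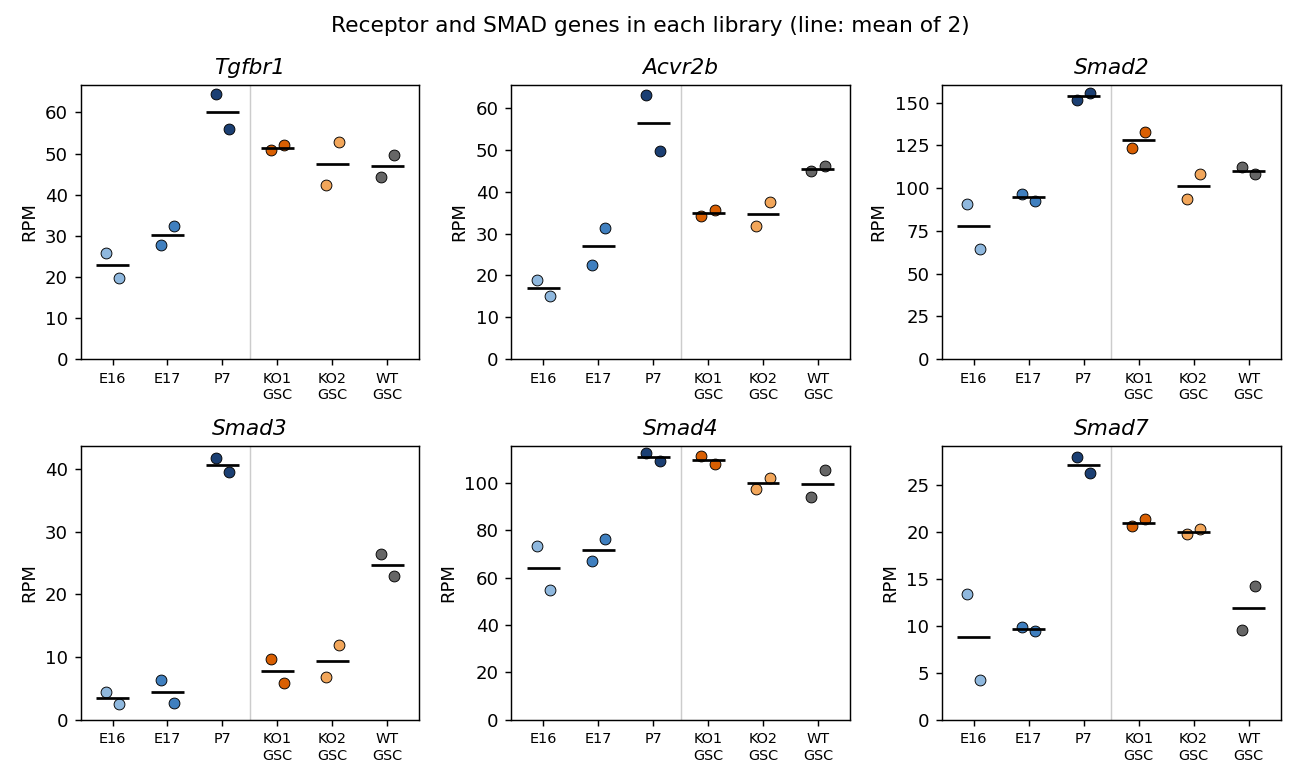
Levels of the 2 receptor genes and 4 SMAD genes in each library, in RPM on linear axes that start at 0, with germ cells in vivo by age on the left of each panel and GSCs on the right. Points are libraries and lines the means of 2. In every panel both P7 libraries are above the fetal ones on this scale, which turned with spike-in scaling, and in GSCs Smad3 is lower and Smad7 higher in both knockout lines than in WT.

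In the GSC lines labelled Stag3 knockout, Smad3 was the member with the clearest change. Smad3 had 9.71 and 5.94 RPM in KO1 (33 and 17 counts) and 6.75 and 11.9 RPM in KO2 (25 and 43 counts), against 26.4 and 22.9 RPM in WT (97 and 92 counts). All 4 knockout libraries were below both WT libraries, and the knockout lines overlapped each other. The mean of the lines differed from WT by -1.56 ± 0.24 (log2, SE; edgeR adjusted p = 1.52e-07), with KO1 at -1.68 ± 0.30 (edgeR adjusted p = 8.8e-06) and KO2 at -1.45 ± 0.28 (edgeR adjusted p = 5.27e-05). KO1 and KO2 share the WT libraries, so these values are not independent of each other. Smad3 fell under all 12 alternatives for the mean of the lines, by 1.4 to 1.81.

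Smad7 had 20.6 and 21.3 RPM in KO1 and 19.7 and 20.3 RPM in KO2, against 9.53 and 14.2 RPM in WT. The knockout libraries lay close together and above both WT libraries, which differed from each other. The WT replicate numbers follow the sample titles, and the names of the deposited tables number these libraries the other way round, so WT replicate 1 here is the library with 9.53 RPM. The mean of the lines was higher by 0.73 ± 0.23 (log2, SE; edgeR adjusted p = 0.0167), KO1 by 0.76 ± 0.26 (edgeR adjusted p = 0.0394) and KO2 by 0.70 ± 0.26, which did not pass (edgeR adjusted p = 0.0553). Without WT replicate 1 the value for the mean was 0.49 and did not pass (edgeR adjusted p = 0.236), and neither DESeq2 (adjusted p = 0.112) nor the fit of all 12 libraries (edgeR adjusted p = 0.105) called it. The KO1 call was kept in 3 of 10 alternatives. It was lost with DESeq2, spike-in scaling, no count filter and the fit of all 12 libraries, and without WT replicate 1 or either KO1 library. KO2 passed without WT replicate 2, at a log2 value of 0.98.

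Acvr2b had 34.1 and 35.6 RPM in KO1 and 31.9 and 37.5 RPM in KO2, against 44.9 and 46.1 RPM in WT. All 4 knockout libraries were below WT. The mean of the lines was lower by a log2 value of -0.44 ± 0.15 (SE; edgeR adjusted p = 0.0246), and neither line passed alone (edgeR adjusted p = 0.0838 in KO1 and 0.0658 in KO2). The call was lost in 7 of 12 alternatives: with DESeq2 (adjusted p = 0.141), with spike-in scaling (edgeR adjusted p = 0.0584), with all 12 libraries in 1 fit (0.0763), and when WT replicate 1 (edgeR adjusted p = 0.0832), WT replicate 2 (0.0703), KO1 replicate 1 (0.0594) or KO2 replicate 1 (0.1) was left out.

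The remaining 3 tested members did not pass. Smad2 had 123.6 and 133.0 RPM in KO1 and 93.7 and 108.2 RPM in KO2, against 112.2 and 108.1 RPM in WT. For the mean of the lines its log2 difference was -0.00 with a 95% interval of -0.20 to 0.19. Smad4 had 111.5 and 107.9 RPM in KO1 and 97.5 and 102.1 RPM in KO2, against 93.9 and 105.4 RPM in WT, and its interval was -0.18 to 0.22. Tgfbr1 had 50.9 and 52.0 RPM in KO1 and 42.4 and 52.7 RPM in KO2, against 44.4 and 49.6 RPM in WT, and its interval was -0.25 to 0.29.

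Counted together, 6 of the 10 members passed the filter in the GSC fit, and 1 was higher and 2 were lower in the mean of the lines, where 19.2% of the 11890 genes tested were called (8.64% higher and 10.6% lower). In KO1 1 was higher and 1 lower, where 13.7% of all genes were called (6.24% higher and 7.41% lower). In KO2 none was higher and 1 was lower, where 15.6% were called (7.20% higher and 8.44% lower). The median log2 value of the 6 was 0.01, beside 0.00 over all genes. No member passed between KO1 and KO2, where 0.833% of genes did (0.547% higher and 0.286% lower). Smad2 was the member furthest apart there, at 0.34 ± 0.12 for KO1 against KO2 (log2, SE; edgeR unadjusted p = 0.0042, adjusted p = 0.213), and it was the one member with an unadjusted p under 0.05. DESeq2 called none there either. Sertoli markers summed to 56.2 to 60.0 RPM in KO1, 37.0 to 41.6 RPM in KO2 and 26.4 to 31.6 RPM in WT, with Amh, Cst9 and Fshr at 0 in all 3. Fibroblast and feeder markers summed to 224 to 230 RPM in KO1, 214 RPM in both KO2 libraries and 249.7 to 257 RPM in WT. Fetal male germ cell markers summed to 58.3 to 60.4 RPM in KO1, 67.0 to 74.1 RPM in KO2 and 103 to 118 RPM in WT, and undifferentiated spermatogonial markers to 652 to 665 RPM in KO1, 695 to 724 RPM in KO2 and 576 to 588 RPM in WT. The part of these differences in the results was not tested.

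**Figure D3:**
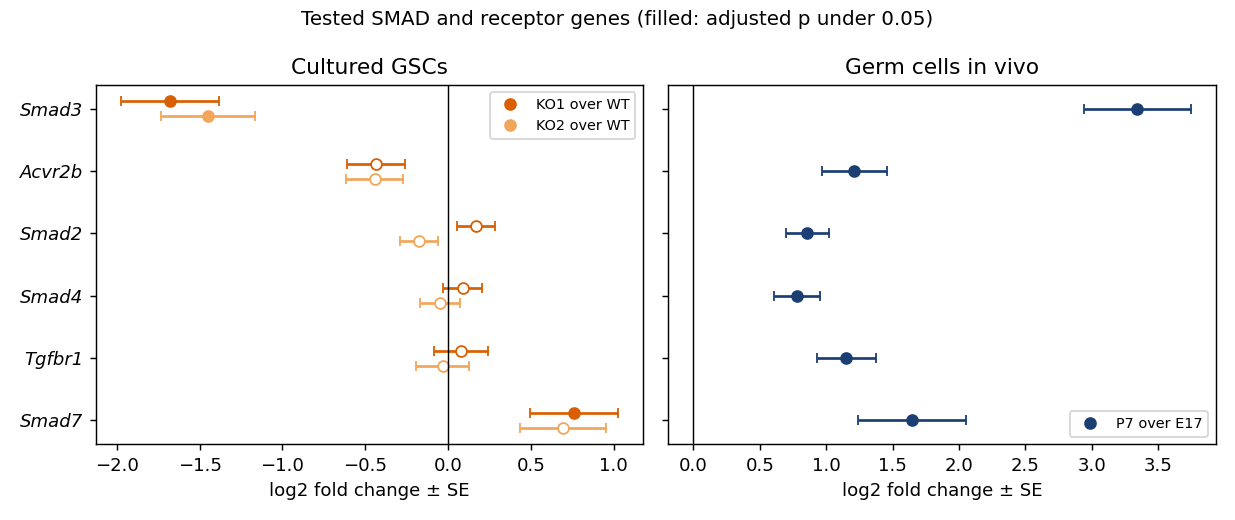
Log2 fold changes with their standard errors from the edgeR fits for the 6 receptor and SMAD genes, in KO1 and KO2 over WT GSCs on the left and in P7 over E17 germ cells on the right, with filled points for an adjusted p under 0.05. Smad3 is lowest in both knockout lines, at -1.68 and -1.45, and highest at P7, at 3.34, where all 6 genes turned negative with spike-in scaling.

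The balance between the SMAD genes within a library does not depend on its scaling. Per 100 reads of Smad2, Smad3 had 7.86 and 4.46 reads in KO1 and 7.20 and 11 in KO2, against 23.5 and 21.2 in WT. In vivo it had 4.92 and 3.83 reads at E16, 6.59 and 2.82 at E17, and 27.5 and 25.4 at P7. WT GSCs and P7 germ cells formed the high end and both knockout lines and the fetal ages the low end, with no library between 11 and 21.2. Smad7 had 16.7 and 16 reads per 100 of Smad2 in KO1 and 21.0 and 18.7 in KO2, against 8.50 and 13.1 in WT. It had 14.8 and 6.56 at E16, 10.2 and 10.2 at E17, and 18.4 and 16.9 at P7. These ratios compare groups and not the amounts of the RNAs, since 3' reads of different genes are not on a common scale.

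**Figure D4:**
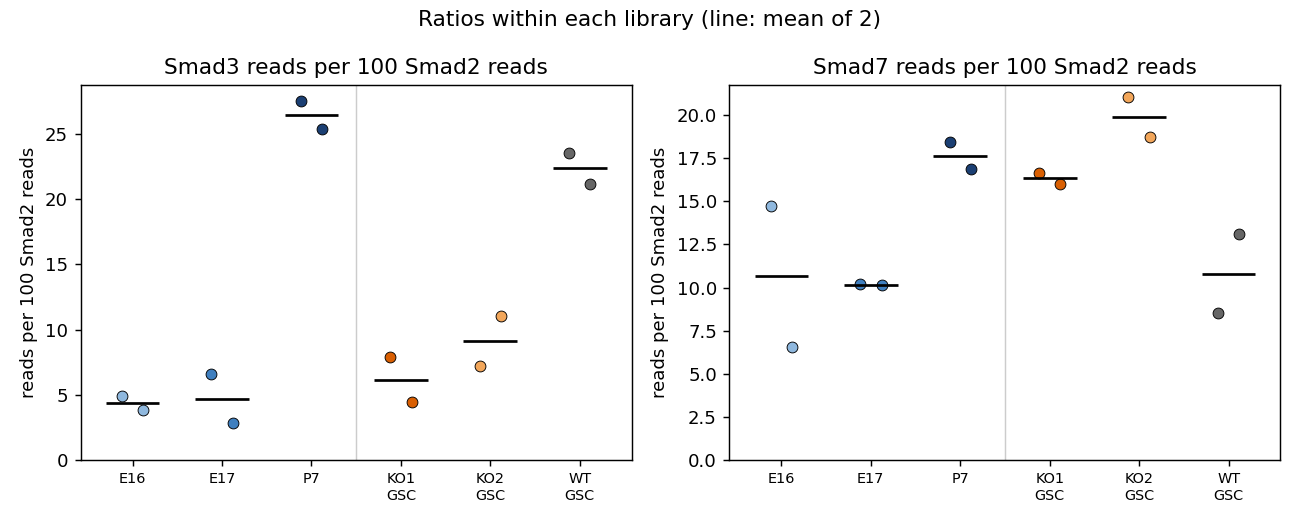
Reads of Smad3 (left) and of Smad7 (right) per 100 reads of Smad2 in each library, with germ cells in vivo by age on the left of each panel and GSCs on the right, and lines at the means of 2. Smad3 separates P7 and WT GSCs, at 21.2 or more, from all other libraries, at 11 or less.

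Ordered by mean level, Smad3 stood at 40.7 ± 1.55 RPM at P7, 24.7 ± 2.46 in WT GSCs, 9.34 ± 3.66 in KO2, 7.82 ± 2.67 in KO1, 4.49 ± 2.65 at E17 and 3.47 ± 1.42 at E16 (SD, n = 2 each). Neighbours in that order overlapped from KO2 downward, and P7 and WT GSCs did not overlap. The genes whose pattern over the 12 libraries was most like that of Smad3, by Pearson's r of log2(RPM + 1) among 14411 genes, were Hmgn5 (r = 0.976), Hbp1 (r = 0.962) and Rasd2 (r = 0.954). Hmgn5, which encodes a nucleosome-binding protein, averaged 80.7 RPM at P7, 41.5 in WT GSCs, 14.5 in KO1, 14.0 in KO2, 8.60 at E17 and 5.31 at E16. These are descriptions of libraries that share groups and scaling.

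Cultured and postnatal cells were also compared. Of 9 members tested for P7 against WT GSCs, 3 were higher (Nodal, Smad2 and Smad7) and none lower, where 31.0% of the 15827 genes tested were called (16.2% higher and 14.8% lower). Nodal entered the test only through its P7 counts, so its call adds nothing to that count. The median log2 value of the 9 was 0.35, beside 0.04 over all genes. Smad7 was higher at P7 by 1.06 ± 0.30 (log2, SE; edgeR adjusted p = 0.00673), and this was lost without WT replicate 1 (edgeR adjusted p = 0.114) or P7 replicate 1 (0.055), and with spike-in scaling, where the value was 0.49 (0.324). Smad2 was higher by 0.35 ± 0.13 (edgeR adjusted p = 0.0393), a call kept in 3 of 9 alternatives and lost when any of the 4 libraries was left out. Smad3 differed by 0.59 ± 0.28 and did not pass (edgeR adjusted p = 0.101). With spike-in scaling the median of all genes was -0.42 and Smad2 turned to -0.20.

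The other genes of the pathway were 52 listed ligands, receptors, inhibitors, convertases, modulators and targets. In the mean of the knockout lines 34 were tested, 6 rose and 3 fell, with a median of 0.11, where 19.2% of all genes were called (8.64% higher and 10.6% lower). DESeq2 called 1 higher and 3 lower. In edgeR none of the 3 ligands, 4 receptors and 5 extracellular inhibitors or latency genes passed, where an unadjusted p was under 0.05 for 0, 1 and 3 of them. The calls were mostly among intracellular modulators, of which 3 of 13 rose and 3 fell.

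Foxo3, a forkhead factor that can act with SMADs, averaged 38.1 ± 9.79 RPM in KO1, 40.0 ± 0.38 in KO2 and 65.3 ± 2.43 in WT (SD, n = 2 each). For the mean of the lines Foxo3 fell by 0.80 on the log2 scale (edgeR adjusted p = 2.91e-06). The SMAD corepressor gene Ski fell by 0.42 (edgeR adjusted p = 2.64e-05) and its relative Skil rose by 0.42 (edgeR adjusted p = 0.0121). Tgif1, another corepressor, fell by 0.51 (edgeR adjusted p = 0.00249). Rnf111, a ubiquitin ligase that removes such inhibitors, rose by 0.66 (edgeR adjusted p = 0.0166), and Zfyve9, which brings SMADs to the receptor, by 0.47 (edgeR adjusted p = 0.0288). Lower in level, and named after their values were seen, Pcsk6, a convertase that processes Nodal, rose by 1.27 (edgeR adjusted p = 0.00159), and of the targets Mixl1 rose by 2.02 (edgeR adjusted p = 0.031) and Bhlhe40 by 0.92 (edgeR adjusted p = 0.045). Mixl1 had 17 counts in KO1, 31 in KO2 and 6 in WT. It passed the count filter only through knockout libraries, so its rise was built into that choice.

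By single line, 3 of the 34 rose and 3 fell in KO1, and 3 rose and 2 fell in KO2, where 13.7% of all genes were called in KO1 and 15.6% in KO2. DESeq2 called none higher in either line, and 3 lower in KO1 and 2 lower in KO2. Foxo3, Ski and Pcsk6 passed in both lines, which share their WT libraries. For the mean of the lines the edgeR fit called 4 of the 34 without WT replicate 1. None of the 34 passed between KO1 and KO2 in edgeR, where 3 had an unadjusted p under 0.05, or in DESeq2.

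In vivo 41 of the 52 were tested. At P7 relative to E17, 7 rose and 17 fell, with a median of -0.12, where 67.9% of all genes were called (30.2% higher and 37.8% lower). All 3 ligands tested fell (Inha, Inhbb and Gdf9, the subunits of inhibins and activins and an oocyte factor), as did 5 of 8 extracellular inhibitor and latency genes, while 5 of 14 intracellular modulators rose and 3 fell. Of the targets, 3 of 8 fell and none rose. Several of the genes that fell passed the count filter only through fetal libraries, so their fall was built into that choice. Among them were Inhbb, Gdf9, Ltbp2 and Bhlhe40, at 2.70, 0.309, 0.638 and 1.95 RPM at P7. With spike-in scaling all 41 were lower at P7.

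Among the named genes, Ski averaged 307 ± 47.0 RPM at P7 and 57.6 ± 4.43 RPM at E17 (SD, n = 2 each) and rose by 2.57 (edgeR adjusted p = 8.9e-09). Foxo3 rose by 1.98 (edgeR adjusted p = 3.18e-06). Ltbp3 and Ltbp4, which hold TGF-beta latent in the matrix, fell by 3.16 and 2.52 (edgeR adjusted p = 5.43e-05 and 9.03e-05). Fstl3, which binds activin, fell by 2.86 (edgeR adjusted p = 4.17e-05), and the target Bhlhe40 fell by 3.52 (edgeR adjusted p = 0.000909). These falling genes were low at P7, at 1.95 to 4.88 RPM, and passed the count filter through fetal libraries. Ltbp3 and Ltbp4 were lower at P7, as were the Sertoli, peritubular, Leydig, fibroblast, endothelial and macrophage marker sums given above. The erythroid sums overlapped. Of their relatives, Ltbp2 fell by 4.08 (edgeR adjusted p = 2.99e-05) and Ltbp1 differed by -0.10 and did not pass (edgeR adjusted p = 0.867). The part of other cells in these values was not tested. Between E17 and E16, 1 of the 41 passed, the activin and Nodal receptor gene Acvr1b, which fell by 1.06 (edgeR adjusted p = 0.0163).

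**Figure D5:**
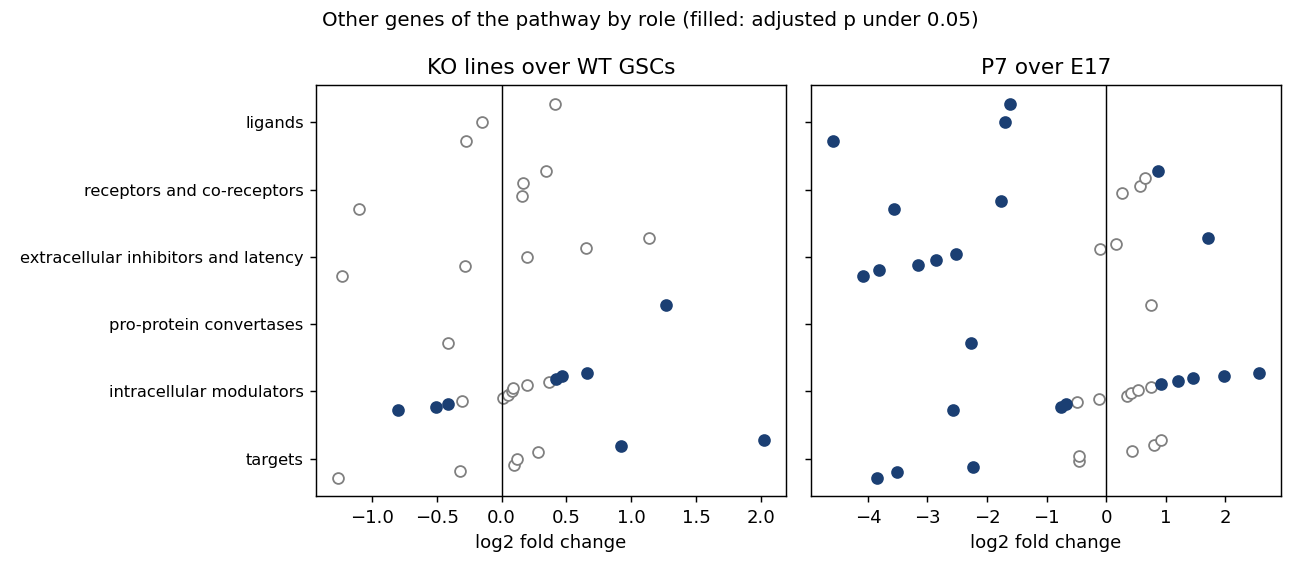
Log2 fold changes of the other pathway genes tested, 1 point per gene, grouped by role, in the mean of both knockout lines over WT GSCs (34 genes, left) and in P7 over E17 germ cells (41 genes, right), with filled points for an edgeR adjusted p under 0.05. In GSCs the filled points are mostly modulators, and in vivo ligands, latency genes and targets lie below 0 where filled, with 1 inhibitor gene above, and all 41 were lower with spike-in scaling. Several genes below 0 in vivo passed the count filter only through fetal libraries.

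For P7 against WT GSCs, 10 of 44 other pathway genes rose and 4 fell, with a median of 0.22, where 31.0% of all genes were called (16.2% higher and 14.8% lower). Eng and Ltbp4, among those that rose, averaged 0.125 and 1.45 RPM in WT GSCs and passed the count filter only through in vivo libraries. Gdf9, among those that fell, averaged 0.309 RPM at P7. Spike-in scaling moved the median of all genes to -0.42, as given above. Fst, which encodes the activin antagonist follistatin, averaged 75.6 ± 9.76 RPM at P7 and 19.5 ± 2.09 RPM in WT GSCs (SD, n = 2 each) and rose by 1.83 (edgeR adjusted p = 1.4e-07). Smurf1, a ubiquitin ligase that acts on SMADs and receptors, rose by 0.93 (edgeR adjusted p = 3.28e-05) and Ppm1a, a phosphatase of SMAD2 and SMAD3, by 0.89 (edgeR adjusted p = 0.000192). Tgif1 fell by 0.97 (edgeR adjusted p = 7.32e-05), Zfyve9 by 0.84 (edgeR adjusted p = 0.0184) and the cell cycle inhibitor gene Cdkn1a by 1.38 (edgeR adjusted p = 0.000739).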

How the data were processed

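Per the labels, cDNA was amplified from column-purified RNA. Named in the submitters' processing notes are Salmon 1.4.0, HTSeq 0.9.1, TopHat2 2.1.1 and cutadapt 1.18, with build GRCm38.p6. What each did, and whether counting used strand, is not given in the sources used here. Whole read counts per gene were deposited by the authors for each library, and these were used in every test. A deposited signal column holds the same counts as scaled by the authors to reads per 1000000, with a total that lacks spike-in, transgene and mitochondrial rows, and RPM here were computed from the counts with that total. Rows that name no gene held 0.198% to 5.86% of counts and were left out. Members were matched by symbol, and in the P7 tables by Entrez ID, and fits that include P7 used the 31675 shared genes with a count in every library.

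Tests used edgeR 4.0.16 (quasi-likelihood, TMM scaling, filterByExpr with a minimum count of 10), with p-values adjusted by Benjamini-Hochberg over all genes of the fit and a threshold of 0.05. The GSC, in vivo and all 12 libraries were fitted separately, the last for P7 against WT GSCs. The script was tested on simulated data with a dispersion of 0.05 between libraries. Of genes changed 2-fold there, 18.9% were called in the GSC fit, 24.2% in the in vivo fit and 17.4% with all 12 libraries. For genes changed 4-fold these shares were 87.9%, 88.5% and 80.8%. A gene that did not pass may therefore still differ. DESeq2 1.42.0, other scalings, no count filter, a replicate block, all 12 libraries in each comparison and leaving out each library were tried. No 2 libraries of a group agreed within sampling noise. The members and lists were chosen with earlier results of these data known. All members are described, and other pathway genes are named where they passed with at least 20 RPM in the higher group, at most 6 per comparison by size of change. Sequences are RefSeq's.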

Additional observations from a re-analysis of the deposited data

How the results depend on the processing

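Depth limits Nodal, Lefty1 and Lefty2, which had under 20 counts in every library, and with 2 libraries a group 1 library often decides a call. Smad3 in the knockout lines kept its direction and its call under every alternative run. The count of members called for the mean of the lines was 3, 1 with DESeq2 or all 12 libraries in 1 fit, 2 with spike-in scaling, and 1 to 3 when leaving out a library. For KO1 it was 2, and 1 with DESeq2, spike-in scaling, no count filter or all 12 libraries, and 1 to 2 when leaving out a library. For KO2 it was 1, and 1 to 2 when leaving out a library. For E17 against E16 it was 0, and 8 with spike-in scaling. For P7 against WT GSCs it was 3, 1 with spike-in scaling, and 1 to 2 when leaving out a library. Lefty2 in P7 against E17 could not be tested without E17 replicate 2 or either P7 library.

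The replicate numbers did not pair the samples (correlations of deviations -0.05 to 0.06). The replicate block moved the KO2 count of members to 2 (Smad7, adjusted p = 0.045), changed no other member's call, and moved the other pathway genes for E17 against E16 to 2, from 1.

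Signs turned under spike-in scaling for P7 against E17 in Smad2 (-3.83), Smad3 (-1.35), Smad4 (-3.90), Smad7 (-3.03), Tgfbr1 (-3.53) and Acvr2b (-3.47), all then called lower. For E17 against E16 they turned in Smad2 (2.95), Smad4 (2.82), Smad7 (2.81) and Tdgf1 (2.35), and for P7 against WT GSCs in Smad2 (-0.20), Smad4 (-0.53), Tgfbr1 (-0.34) and Acvr2b (-0.39). In GSCs the turned values were near 0: Smad4 and Tgfbr1 at -0.0031 and -0.0026 for the mean of the lines, -0.017 and -0.025 for KO1, 0.010 and 0.020 for KO2, and for KO1 against KO2 Smad4 -0.027, Smad7 -0.098, Tgfbr1 -0.045 and Acvr2b -0.15. No count filter turned Smad4 to -0.0010 for P7 against WT GSCs. The fit of all 12 libraries turned Smad4 (-0.0045) and Tgfbr1 (-0.0014) for the mean of the lines and Acvr2b (-0.011) for KO1 against KO2. The cause was not tested.

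Leaving out 1 library turned no called value. The ranges of log2 values that crossed 0 when leaving out a library follow. For the mean of the lines these were Smad2 -0.066 to 0.036, Smad4 -0.046 to 0.071 and Tgfbr1 -0.067 to 0.086. For KO2 against WT these were Smad4 -0.12 to 0.00079 and Tgfbr1 -0.21 to 0.10. For KO1 against KO2 these were Smad3 -0.65 to 0.23, Tgfbr1 -0.032 to 0.28 and Acvr2b -0.10 to 0.13. For E17 against E16 these were Smad2 -0.22 to 0.16, Smad3 -0.68 to 0.59, Smad7 -0.75 to 0.79 and Tgfbr1 -0.051 to 0.22. For P7 against WT GSCs these were Smad4 -0.049 to 0.092, Tdgf1 -3.44 to 2.22 and Acvr2b -0.021 to 0.31.

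Over all genes, calls for the mean of the lines were 2286 (1027 higher, 1259 lower), and 1083 with DESeq2 (452 higher, 631 lower), 1447 with spike-in scaling (569 higher, 878 lower) and 1415 in the fit of all 12 libraries (438 higher, 977 lower). For KO1 they were 1623, and 679 with DESeq2, 858 with all 12 libraries, and 863 and 877 without either KO1 library. For KO2 they were 1860, and 864, 1006, 1191 with spike-in scaling, and 905 and 977 without either KO2 library. For KO1 against KO2 they were 99, and 35, 39 and 41 to 45 when leaving out a library. For E17 against E16 they were 975, and 14508 with spike-in scaling, 1763 with all 12 libraries, and 232 to 3644 when leaving out a library. For P7 against WT GSCs they were 4905, and 3200 without P7 replicate 1.

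Other pathway genes called were 9 for the mean of the lines, and 4 with DESeq2, all 12 libraries or without WT replicate 1. They were 6 for KO1, and 3 with DESeq2 or all 12 libraries, and 5 for KO2, and 2 with these and 3 without WT replicate 1 or either KO2 library. For E17 against E16 the 1 became 40 with spike-in scaling, 3 with no count filter or all 12 libraries, and 0 to 10 when leaving out a library. For P7 against E17 the 24 became 41 with spike-in scaling, and for P7 against WT GSCs the 14 became 6 to 9 without WT replicate 1, WT replicate 2 or P7 replicate 2.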
